A study of Mus musculus with 6 samples.

Results

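Gonadal somatic cells of the XX mouse embryo were compared between the embryonic stages E11.5 and E12.5 (E, embryonic day). The cells were selected on 4 readouts of their own: at least 500 detected genes, at most 10% mitochondrial UMIs, at least 1 UMI of Gata4, and fewer than 3 summed UMIs of the 5 germ cell genes Dazl, Ddx4, Dppa3, Dppa5a and Pou5f1. Unique molecular identifiers (UMIs) mark single captured mRNA molecules. The rule kept 1268 of 2766 barcodes at E11.5 (45.8%, exact 95% interval 44.0 to 47.7) and 1399 of 3300 at E12.5 (42.4%, 40.7 to 44.1), that is 2667 of the 6066 barcodes of the 2 libraries and of 29398 in the whole series.

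Both libraries are droplet single-cell RNA-seq (10x Chromium 3′ v2 kit) of gonads of ICR embryos, an outbred stock, dissociated with papain. The labels give 1 library per stage and do not say how many embryos or litters were pooled. The series also holds XX gonads of an earlier stage (E10.5) and of later ones (E13.5, E14.5), and somatic cells made from mouse embryonic stem cells (129svj x C57BL/6J). With 1 library on each side, stage, litter and library preparation cannot be told apart, and no test across samples was possible. All intervals below are 95% intervals for counting error alone.

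Background: the bipotential gonad forms as a thickened ridge of coelomic epithelium whose cells express Gata4, Wt1, Nr5a1, Lhx9 and Emx2. In XX gonads part of these cells become pregranulosa cells, the supporting cells that later enclose oocytes and that are marked by Foxl2, Runx1, Fst and Wnt signalling genes. The remainder form surface epithelium and stroma, and germ cells that have migrated into the ridge divide among them.

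The selected cells held a median of 12657 UMIs and 3510.5 genes at E11.5 and 10096 UMIs and 2900 genes at E12.5. Their summed UMIs came to 20965982 and 17369692, and levels are given as counts scaled to a total of 1e6 per sum (CPM). Because reads were counted at the 3′ end, a CPM is compared between stages of 1 gene and not between genes. Gata4, the gene that set the gate, measured 145.9 CPM at E11.5 and 149.97 CPM at E12.5. Just inside the gate lay 534 and 729 cells with a single Gata4 UMI (42.1% and 52.1%). Near the germ cell limit, 5 cells in each library held 2 germ cell UMIs and were kept, and 2 and 1 cells held 3 and were left out. The libraries shared 18 barcodes, 2 of them among the selected cells of both.

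The labelled identity was checked against genes outside the rule. After each cell was thinned to 5000 UMIs (5 and 33 shallower cells were left out), a Wt1 UMI was found in 83.5% of the selected cells at E11.5 and 79.1% at E12.5, and an Lhx9 UMI in 78.9% and 71.2%. In endothelial-marker cells of the same libraries, which should lack both genes, the shares were 3.85% and 5.77% for Wt1 and 14.1% and 3.85% for Lhx9. The summed level of 14 endothelium markers was 129 CPM at E11.5 and 80.2 CPM at E12.5, that of 14 leukocyte markers 7.49 and 10.9 CPM, and that of 14 mesonephric tubule markers, which include Emx2, 327 and 269 CPM. Xist was present at 954 and 1283 CPM, and the 5 Y-linked genes searched had no UMI in either sum. Without cells holding 3 or more UMIs of the endothelium, leukocyte or mesonephric lists (Emx2 and Calb1 not counted), which left 1010 and 1242 cells, the 2-fold limit was passed by 40 genes upward and 61 downward, including 38 and 51 of the genes that pass it in all selected cells (given next). The part of free RNA from other cells was not tested.

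Of 5780 genes with at least 20 CPM in either sum, 41 (0.709%) were at least 2-fold higher at E12.5 and 55 (0.952%) at least 2-fold lower. At 1.5-fold, 132 genes (2.28%) were higher and 220 (3.81%) lower, so that 93.9% of genes lay within 1.5-fold. The median log2 ratio over all genes was -0.15, and ratios centred on that median gave 53 higher and 38 lower genes. That moved the share of higher genes among the calls from 42.7% to 58.2%. The share was 30.9% (30 higher, 67 lower) when the marker-defined strata described below were weighted as at E11.5, and 52.9% (64 higher, 57 lower) with ribosomal protein and mitochondrial genes left out. Centring, and leaving genes out of the totals, shift all log2 ratios by a common amount, too small to reverse a gene called at 2-fold. No named gene called at 2-fold changed direction under these 3 settings, which for those 2 was fixed in advance. On centring, 40 named genes moved outside their counting interval and 17 stayed within. Named genes near a ratio of 1 could change direction: centring moved the log2 ratio of Wnt6 from -0.004 to 0.15 and that of Mki67 from -0.12 to 0.03. The plot of CPM at both stages shows how few genes left the diagonal.

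**Figure D1:**
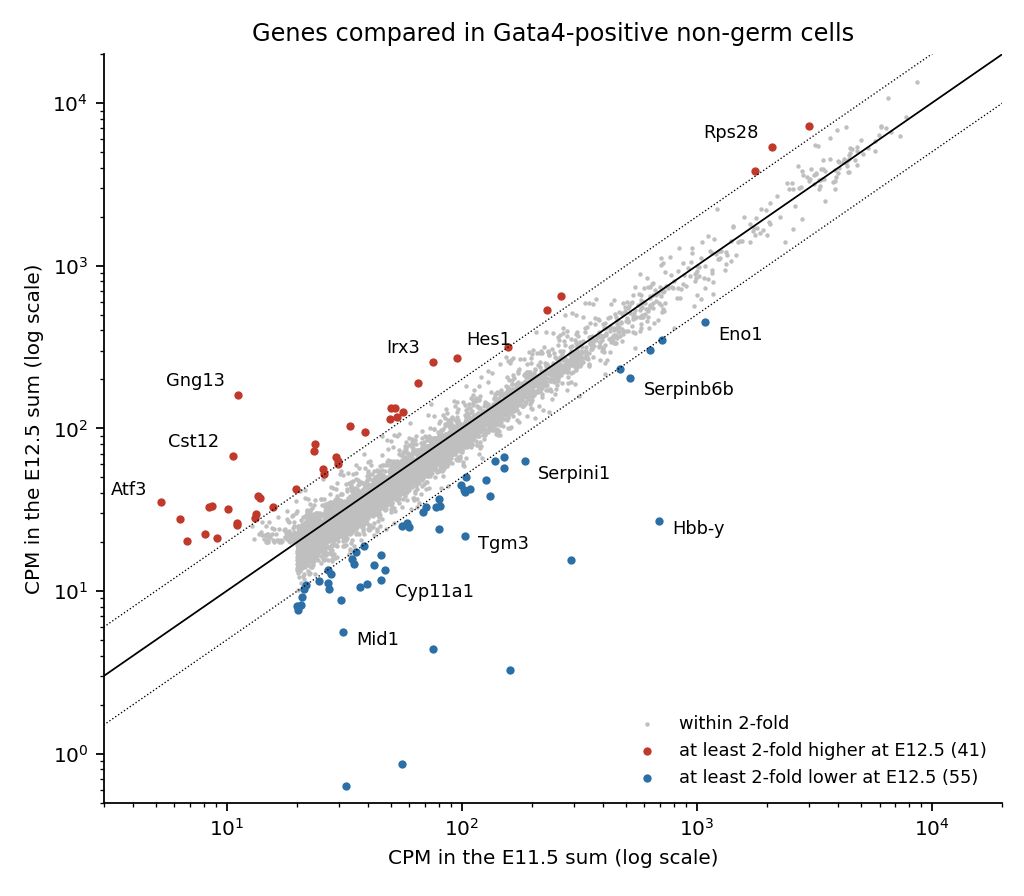
Each point is 1 of 5780 genes, with its CPM in the summed E11.5 cells on the x axis and in the summed E12.5 cells on the y axis, both on log scales. The solid line marks equality and the dotted lines a 2-fold difference, with 41 genes above (red) and 55 below (blue).

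Gng13 had the highest ratio of the named genes, and it was 1 of 3 supporting lineage markers at least 2-fold higher. Of the 12 such markers compared, 6 were above and 6 below a log2 ratio of 0, with a median of 0.11. Gng13, which encodes a G protein gamma subunit, went from 11.2 CPM to 160 CPM (234 and 2783 UMIs), a 14.4-fold higher level (12.6 to 16.5). Cst12, a cystatin (cysteine protease inhibitor) gene, went from 10.6 to 68.0 CPM (6.39-fold, 5.54 to 7.41). The homeobox gene Irx3, a factor of pregranulosa cells, went from 75.7 to 257 CPM (3.40-fold, 3.21 to 3.60). Foxl2, the forkhead factor that maintains ovarian supporting cell identity, went from 11.1 to 26.1 CPM (2.35-fold, 2.00 to 2.77). All of them continued upward into the E13.5 library under the same rule, where Gng13 measured 420 CPM, Cst12 129 CPM, Irx3 391 CPM and Foxl2 94.5 CPM. At E10.5 (230 selected cells) Gng13 stood at 0.519 CPM and Irx3 at 8.31 CPM, while Cst12 and Foxl2 had no UMI, where 3 counts would have made 1.56 CPM.

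In their positions on GRCm38, Gng13 lies at chr17:25717171-25719406 and Cst12 at chr2:148789361-148793546, both on the plus strand. Irx3 lies on the minus strand at chr8:91798525-91802067 and the short Foxl2 gene on the plus strand at chr9:98955288-98958543. These are protein-coding genes, and the counts do not say which part of a gene the reads fell in.

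More cells held each transcript at E12.5. At equal depth the share of cells with a Gng13 UMI was 4.59% (3.51 to 5.90) at E11.5 and 27.9% (25.5 to 30.4) at E12.5, against 0 of 78 endothelial-marker cells (which allows up to 3.85%) and 1.92% of 52. Without thinning the Gng13 shares were 10.2% and 37.6%. Irx3 was found in 22.5% and 51.3% of cells (37.6% and 62.0% without thinning; endothelial-marker cells 6.41% and 7.69%). Foxl2 was found in 5.15% and 11.9% (10.1% and 18.3% without thinning), so even at E12.5 most selected cells had no Foxl2 UMI at this depth. The endothelial-marker cells were deeper before thinning, with medians of 19385 and 17353 UMIs.

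**Figure D2:**
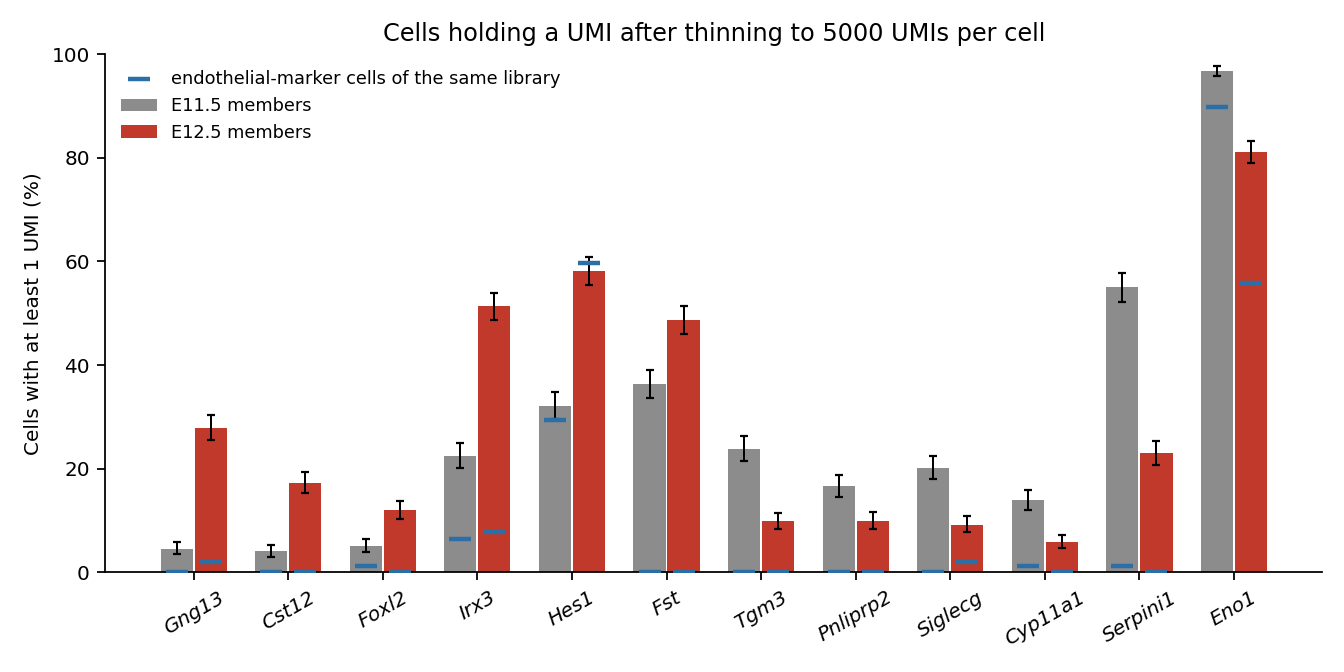
Bars give the percentage of selected cells with at least 1 UMI of a gene after thinning to 5000 UMIs per cell, at E11.5 (grey, 1263 cells) and E12.5 (red, 1366 cells), with exact 95% intervals; blue marks give the same share in 78 and 52 endothelial-marker cells. Gng13, Cst12, Foxl2 and Irx3 lie well above the blue marks at E12.5, while the Hes1 bars lie level with them.

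Fst (follistatin, an activin antagonist) is a marker of the same lineage that was already abundant, at 371 and 437 CPM, and it was used to split the cells by Fst UMIs at equal depth. Among cells with no Fst UMI (804 and 701 cells) Gng13 went from 5.97 to 101 CPM, and among cells with 2 or more (369 and 542 cells) from 26.6 to 259 CPM. Irx3 went from 33.1 to 123 CPM in the first range and from 179 to 464 CPM in the second. Foxl2 stood at 1.99 and 5.14 CPM without Fst and at 29.3 and 68.6 CPM with 2 or more. The higher levels of Gng13 and Irx3 were thus present on both sides of the Fst split, and the Foxl2 UMIs were mostly on its Fst-positive side. Of Gng13-positive cells at E12.5, 74.5% held an Irx3 UMI and 16.8% a Foxl2 UMI, against 42.3% and 10.1% of the other cells.

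The rest of the pregranulosa and ovarian pathway list lay closer to a ratio of 1. Of its 17 genes compared, 3 were at least 2-fold higher (Gng13, Irx3, Foxl2) and 1 at least 2-fold lower (Sprr2d), against 0.709% and 0.952% of all genes. The list's median log2 ratio was 0.00, against -0.15 over all genes. Wnt4, which drives ovarian against testicular fate, stood at 256 and 195 CPM. The Wnt agonist gene Rspo1 stood at 165 and 142 CPM, and Wnt6 at 249 CPM in both libraries. Runx1, a transcription factor of fetal pregranulosa cells, stood at 84.2 and 73.0 CPM. Kitl, the ligand that sustains germ cells through the Kit receptor, stood at 187 and 217 CPM, and Bmp2 at 62.3 and 80.4 CPM. None of these was past 1.5-fold. Axin2, a feedback gene of canonical Wnt signalling, went from 22.2 to 36.8 CPM (1.66-fold, 1.47 to 1.87), and the muscle segment homeobox gene Msx1 from 73.0 to 42.9 CPM (1.70-fold lower).

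Several low genes listed for this lineage did not reach 20 CPM and entered no count. The Wnt-responsive receptor gene Lgr5 went from 4.67 to 16.0 CPM (3.42-fold, 2.71 to 4.36), Irx5 from 5.34 to 12.8 CPM and the metalloprotease gene Adamts19 from 2.34 to 12.1 CPM. Lgr5 reached 47.5 CPM at E13.5. At E12.5 and equal depth an Lgr5 UMI was found in 6.13% of Foxl2-positive cells and 5.65% of the other cells. In the strata described below its E12.5 level was 28.6 CPM (surface), 18.9 CPM (remaining) and 13.1 CPM (stromal). Of the late supporting lineage genes, 7 were compared, of which the metallothionein gene Mt2 was at least 2-fold higher (23.6 and 72.3 CPM, 3.06-fold, 2.76 to 3.41). Inside the stratum without stromal or surface markers, Mt2 was only 1.77-fold higher. It was 3.05-fold higher in the stromal stratum and 2.85-fold higher in cells meeting both limits. The largest Mt2 ratio was in the surface stratum, at 12.1-fold (16 and 229 UMIs). At E12.5 Mt2 measured 199 CPM (surface), 83.8 CPM (both limits), 70.0 CPM (remaining) and 44.2 CPM (stromal). Mt1 (121 and 208 CPM), Ifi27 (60.4 and 108 CPM) and the galectin gene Lgals7 (840 and 1278 CPM) were each past 1.5-fold.

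**Figure D3:**
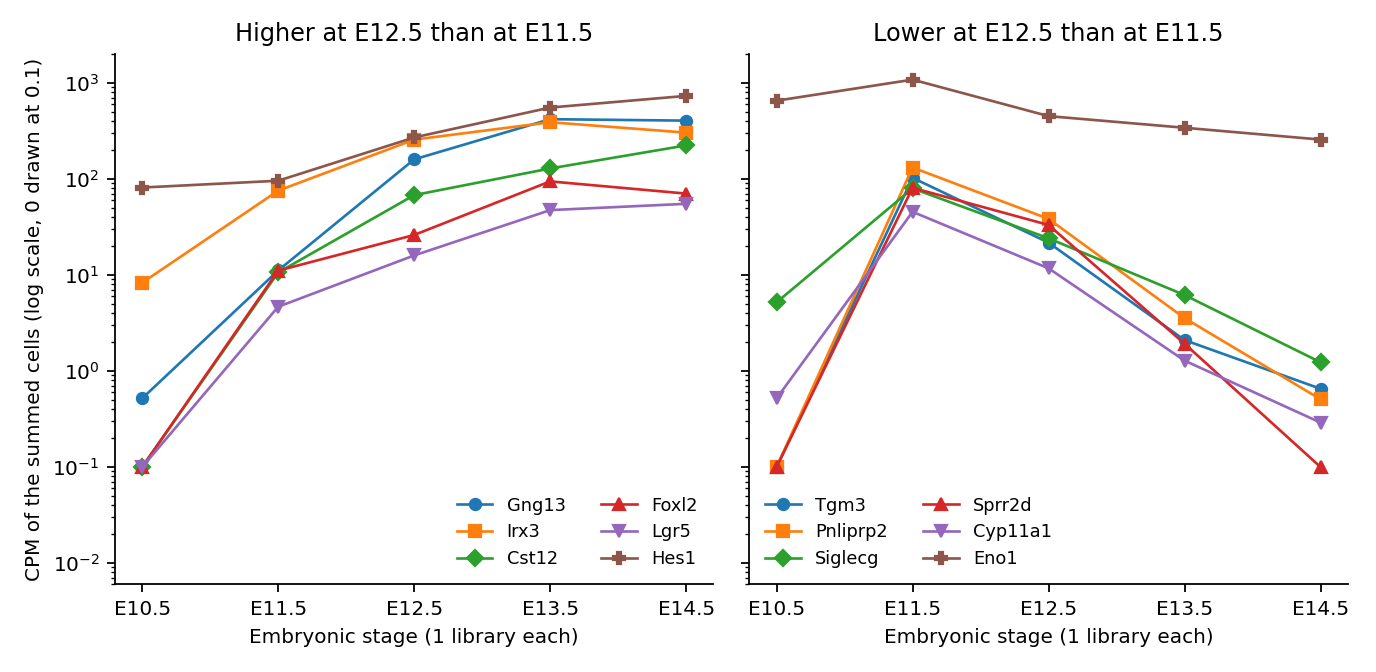
Lines join the CPM (log scale, 0 drawn at 0.1) of single genes in cells selected by the same rule at 5 stages, 1 library each. The genes on the left climb from E10.5 to E13.5; on the right Tgm3, Pnliprp2, Siglecg, Sprr2d and Cyp11a1 are highest at E11.5 and lower at each later stage.

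The genes that were lower at E12.5 included a group with a brief E11.5 peak. Tgm3, a transglutaminase that cross-links proteins of epithelial barriers, went from 103 to 21.8 CPM (4.73-fold lower, 4.24 to 5.29). Pnliprp2, a pancreatic lipase-related gene, went from 132 to 38.5 CPM (3.43-fold lower, 3.15 to 3.74). Siglecg, a sialic acid-binding receptor of leukocytes, went from 79.9 to 24.1 CPM (3.31-fold lower, 2.97 to 3.69). The list of lipase and barrier genes was drawn up with their E11.5 peak known. Of its 9 genes compared, 7 were at least 2-fold and all 9 at least 1.5-fold lower, against 0.952% and 3.81% of all genes. The list's median log2 ratio was -1.15, against -0.15 over all genes. At E10.5 Tgm3, Pnliprp2 and Sprr2d had no UMI, and by E14.5 Tgm3 was at 0.654 CPM and Pnliprp2 at 0.508 CPM. The Sprr2 genes are near-identical copies whose reads may be split between them, so the Sprr2d value (81.0 and 33.2 CPM) is uncertain.

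Tgm3, Siglecg and Cyp11a1 were concentrated in Fst-positive cells at both stages. In cells with 2 or more Fst UMIs Tgm3 went from 236 to 52.4 CPM, and in cells with none from 45.8 to 7.99 CPM. Siglecg went from 207 to 57.9 CPM and from 20.1 to 7.42 CPM in the same ranges. The share of cells with a Tgm3 UMI was 23.8% (21.5 to 26.3) at E11.5 and 9.81% (8.28 to 11.51) at E12.5 (34.9% and 15.01% without thinning), with none among the endothelial-marker cells. Thus Tgm3 and Siglecg were lower, and Gng13 and Irx3 higher, both in cells with 2 or more Fst UMIs and in cells with none.

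Cyp11a1, the enzyme that starts steroid synthesis from cholesterol, belonged to these genes by its course. It went from 45.6 to 11.7 CPM (3.88-fold lower, 3.33 to 4.53) and then to 1.28 CPM at E13.5. At E11.5 a Cyp11a1 UMI was found in 37.2% of Tgm3-positive cells and 6.65% of the other cells. The remaining steroidogenesis genes moved little: of 6 compared, Cyp11a1 alone was past 1.5-fold, Nr5a1 stood at 53.1 and 55.3 CPM, and Star, below the 20 CPM limit, at 14.4 and 12.9 CPM. The retinoic acid-degrading enzyme gene Cyp26b1, also below the limit, went from 19.3 to 3.97 CPM (4.86-fold lower, 3.76 to 6.37), and Dmrt1, a factor that maintains male supporting cell identity, from 13.55 to 3.80 CPM.

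Of 17 genes on the Sertoli pathway list only Inhbb (31.3 and 18.9 CPM), Nr0b1 (39.1 and 28.04 CPM) and Aard (20.9 and 26.0 CPM) reached 20 CPM; Inhbb was at least 1.5-fold lower. Amh had 6 and 5 UMIs in all (0.286 and 0.288 CPM). Sox9, the driver of Sertoli cell fate, went from 7.30 to 13.2 CPM (153 and 229 UMIs, 1.81-fold higher, 1.47 to 2.23), and Fgf9 stood at 3.34 and 3.40 CPM. Sox9 and Fgf9 entered no count.

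Other genes off the lipase and barrier list were lower as well. Serpini1, the neuroserpin gene, went from 185 to 62.6 CPM (2.96-fold lower, 2.77 to 3.17), and the share of cells with a UMI from 55.0% to 22.99% (80.8% and 43.2% without thinning). The growth factor gene Ptn went from 151 to 56.9 CPM (2.66-fold lower) and Lpl, lipoprotein lipase, from 103 to 40.4 CPM (2.55-fold lower). The intracellular protease inhibitor gene Serpinb6b went from 522 to 205 CPM (2.54-fold lower, 2.45 to 2.64). Cxcl12, the chemokine that guides germ cells to the gonad, went from 37.0 to 10.6 CPM (3.49-fold lower, 2.97 to 4.13) and had been at 216 CPM in the E10.5 cells. At E10.5 Serpini1 had stood at 5.19 CPM and Serpinb6b at 2.08 CPM, so both were also highest at E11.5. Serpini1 continued down to 41.3 CPM at E13.5, whereas Ptn was higher again there, at 144 CPM. The stathmin gene Stmn1, a regulator of microtubules, stood at 636 and 302 CPM and the glypican gene Gpc3 at 474 and 231 CPM, and both were named after their values were seen. Many lower genes were lower in other cells of the libraries too. Of the 55 called genes, 26 reached 20 CPM in endothelial-marker cells of the same libraries. Of these, 23 had intervals wholly below 1 there (18 at least 2-fold lower, median log2 ratio -1.20). Over all genes at 20 CPM there, 190 of 5686 were at least 2-fold lower, with a median log2 ratio of -0.15. The 55 include 6 erythroid-marker genes, whose UMIs are described with the haemoglobin genes below. In germ-marker cells (298 and 574 cells, defined with the glycolysis genes) 12 of 18 had intervals below 1. Another 4 lay above, 3 of them haemoglobin genes and the other Idi1. At 2-fold 5 of the 18 were lower and 3 higher, against 53 lower and 59 higher of 5345 genes over all.

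Glycolysis genes were lower as a group. Eno1, enolase, went from 1085 to 452 CPM (2.40-fold lower, 2.34 to 2.46), and Pfkl, the liver-type phosphofructokinase, from 105 to 50.1 CPM (2.09-fold lower, 1.93 to 2.27). Pgk1, phosphoglycerate kinase, went from 709 to 356 CPM (1.99-fold lower, 1.93 to 2.05), Ldha, lactate dehydrogenase, from 977 to 565 CPM (1.73-fold lower) and Slc2a1, the glucose transporter GLUT1, from 29.0 to 16.1 CPM (1.80-fold lower). Of 20 glycolysis and hypoxia genes compared, 4 were at least 2-fold lower (Eno1, Pfkl, Ankrd37, Ndrg1) and 12 at least 1.5-fold lower, against 0.952% and 3.81% of all genes. The list's median log2 ratio was -0.74, against -0.15 over all genes. Hk2, a hexokinase, went the other way, from 25.8 to 48.8 CPM (1.89-fold higher, 1.70 to 2.11). Vegfa (19.98 and 20.2 CPM) and Bnip3 (33.7 and 32.0 CPM), both known hypoxia targets, were level. Pfkl lay within 2-fold when ratios were centred on the median of all genes (log2 ratio -0.91), and so did Ankrd37 (-0.86). Eno1 has a near-identical copy, Eno1b, which was lower as well (39.5 and 11.1 CPM), and reads may be split between them.

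**Figure D4:**
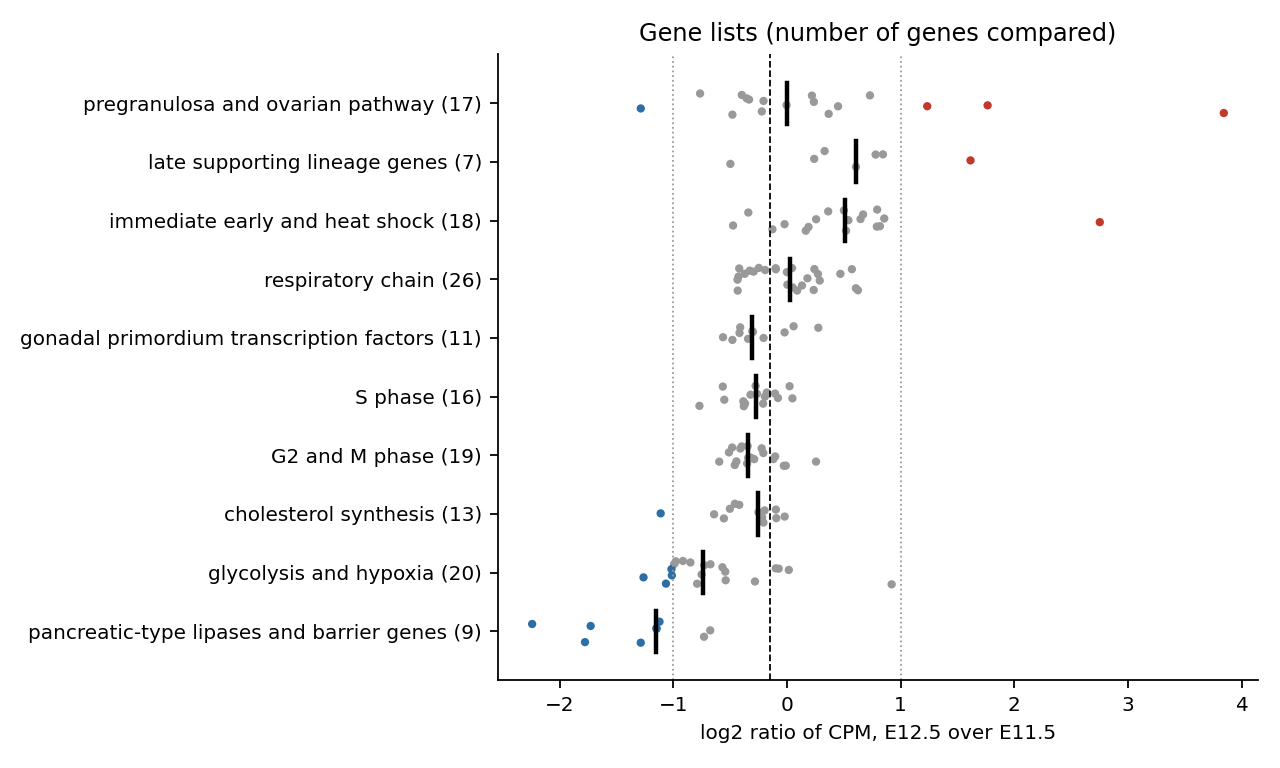
Each point is the log2 ratio (E12.5 over E11.5) of 1 gene of 10 gene lists; black bars are list medians, the dashed line the median of all genes and dotted lines 2-fold. The glycolysis and lipase lists sit left of the dashed line and the immediate early list mostly right of it.

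The same ratio was taken in endothelial-marker cells (78 and 53 cells with at least 10 endothelium-marker UMIs and no Gata4 UMI) and germ-marker cells (298 and 574 cells) of both libraries. Eno1 was 2.19-fold lower (1.91 to 2.52) in endothelial-marker cells, at 488 and 223 CPM, and 2.29-fold lower (2.16 to 2.43) in germ-marker cells, at 415 and 181 CPM. Pgk1 was 1.66-fold lower in the former and 1.65-fold lower in the latter. Of the list's genes with 20 CPM in those cells, 13 of 16 had intervals wholly below 1 in endothelial-marker cells. In germ-marker cells 12 of 14 did, and none had one wholly above in either. At least 1.5-fold lower were 10 of the 16 and 7 of the 14, against 790 of 5686 and 402 of 5345 genes over all. The list's median log2 ratios were -0.72 and -0.61, against -0.15 and -0.08 over all genes there. The difference therefore ran through 3 kinds of cells of the same pair of libraries, and whether it belongs to stage or to library preparation cannot be told apart. Eno1, Pgk1 and Ldha continued lower in the later libraries, with Pgk1 at 186 CPM at E13.5 and 150 CPM at E14.5 (Eno1 342 and 258 CPM, Ldha 357 and 275 CPM).

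**Figure D5:**
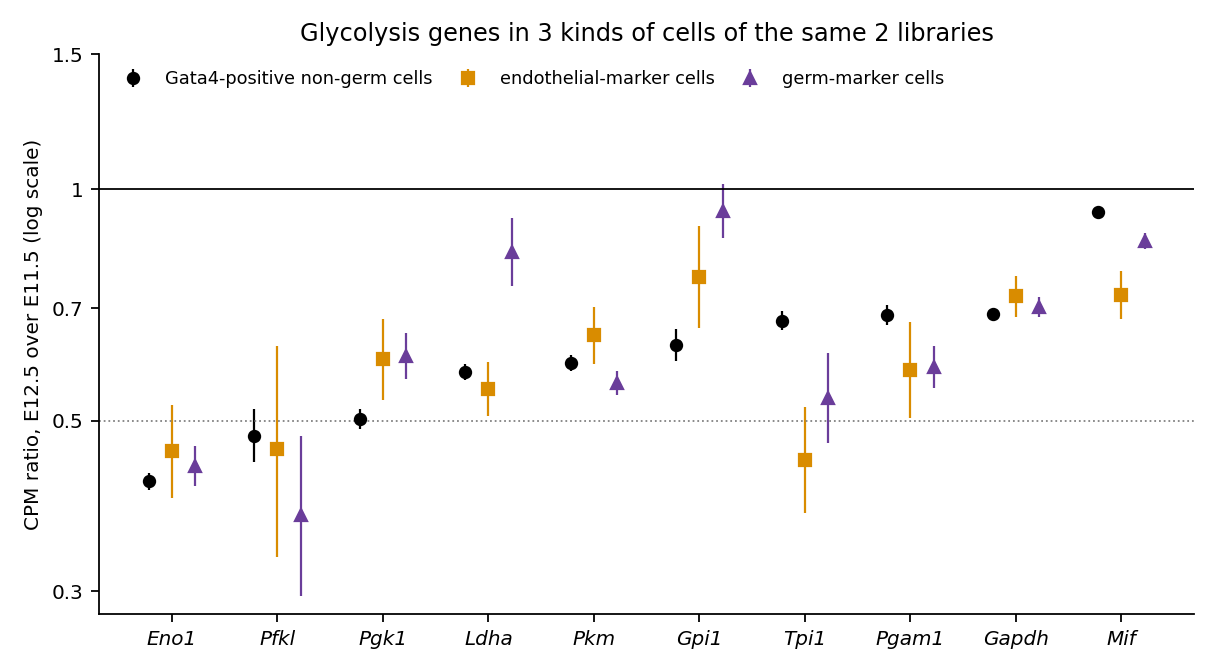
Points give the CPM ratio of E12.5 over E11.5 (log scale) with 95% counting intervals for 10 glycolysis list genes in the selected cells (black), endothelial-marker cells (orange) and germ-marker cells (purple). All points lie below 1, though the germ-marker interval of Gpi1 crosses it, and Eno1 lies below 0.5 in each kind of cell.

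Several of these genes are textbook targets of the hypoxia-inducible factors, whose response element has the core ACGTG. The 250 bases before each annotated start in RefSeq promoter sequences of GRCm38.p6 were searched for ACGTG on both strands (CACGT on the plus strand is the same core on the other). A gene with several starts was counted if any of its windows held the core. The 4 windows shown are those of Ldha, Pgk1, Ankrd37 and Slc2a1, which were lower at E12.5 and hold the core. For a gene with several windows the one with the most matches is shown, so it was picked by the motif. That of Ankrd37 lies inside the annotated span of the gene (chr8:45996902-46005707). Capitals mark the core, and overlapping matches on the 2 strands run together as CACGTG.
Ldha (chr7:46845554-46845803, plus strand): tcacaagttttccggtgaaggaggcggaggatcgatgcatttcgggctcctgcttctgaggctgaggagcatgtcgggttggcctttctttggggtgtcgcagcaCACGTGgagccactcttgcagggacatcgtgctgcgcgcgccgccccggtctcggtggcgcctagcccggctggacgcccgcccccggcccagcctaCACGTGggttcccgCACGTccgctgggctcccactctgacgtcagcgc
Pgk1 (chrX:106186850-106187099, plus strand): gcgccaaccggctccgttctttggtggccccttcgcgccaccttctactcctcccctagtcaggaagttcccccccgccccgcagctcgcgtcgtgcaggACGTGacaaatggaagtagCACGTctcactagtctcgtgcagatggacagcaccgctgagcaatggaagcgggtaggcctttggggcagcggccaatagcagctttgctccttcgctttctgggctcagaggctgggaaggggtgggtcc
Ankrd37 (chr8:45999851-46000100, minus strand): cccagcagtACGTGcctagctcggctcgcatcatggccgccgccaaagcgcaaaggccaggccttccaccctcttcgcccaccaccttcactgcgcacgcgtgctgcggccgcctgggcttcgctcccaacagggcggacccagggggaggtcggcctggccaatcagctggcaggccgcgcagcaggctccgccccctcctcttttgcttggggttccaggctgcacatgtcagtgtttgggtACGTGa
Slc2a1 (chr4:119108495-119108744, plus strand): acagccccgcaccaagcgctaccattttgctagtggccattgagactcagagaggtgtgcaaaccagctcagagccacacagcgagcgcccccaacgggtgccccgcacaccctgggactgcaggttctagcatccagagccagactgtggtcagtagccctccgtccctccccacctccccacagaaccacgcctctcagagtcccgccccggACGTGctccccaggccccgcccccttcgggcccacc
The core occurred in 16.6% of all 32851 windows, in a window of 26.9% of the 4621 compared genes with one, and in 11 of the 19 list genes with one. It was found 5 times in the Ldha window, 2 times in those of Pgk1 and Ankrd37 and 1 time in that of Slc2a1. It was absent from the windows of Eno1 and Pfkl, and present in those of Hk2, which was higher, and of Vegfa and Bnip3, which were level. By direction, 7 of 11 list genes at least 1.5-fold lower and 4 of the other 8 held it. A match is a description of the letters only.

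Most of the higher genes that could be compared in other cells were higher there as well. Of the 41 genes, 23 reached 20 CPM in endothelial-marker cells, 19 of them with intervals wholly above 1 and 1, Atf3, below. In germ-marker cells 18 reached it, 17 above and 1, Mt2, below. At 2-fold 13 of the 23 and 6 of the 18 were higher, against 59 of 5686 and 59 of 5345 genes over all. Gng13 and Cst12 had at most 1 UMI in the endothelial-marker cells of either stage and could not be compared. Germ-marker cells showed Gng13 at 2.63 and 20.6 CPM (17 and 212 UMIs, 7.81-fold), and the part of free RNA in that was not tested. Irx3 had 31 and 21 UMIs there (18.8 and 17.1 CPM, ratio 0.910, 0.497 to 1.64). Hes1, a repressor induced by Notch signalling, went from 96.0 to 271 CPM in the selected cells (2.82-fold, 2.68 to 2.98) and was also 2.20-fold higher in endothelial-marker and 2.15-fold higher in germ-marker cells. In the Fst split its level was similar in each range, at 98.8 to 105 CPM at E11.5 and 280 to 335 CPM at E12.5. Of the other 3 Notch pathway genes compared, none was past 2-fold, and Hey1 stood at 23.4 and 14.4 CPM.

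Short transcripts of ribosomal proteins were also higher in all 3 kinds of cells compared. Rps28 went from 2099 to 5342 CPM (2.54-fold, 2.52 to 2.57), Rps29 from 3021 to 7272 CPM (2.41-fold) and Rpl38 from 1776 to 3831 CPM (2.16-fold). Of 80 ribosomal protein genes compared, 60 were above a log2 ratio of 0, whereas 74.1% of all genes lay below it. At least 2-fold higher were 3 and at least 1.5-fold higher 11, against 0.709% and 2.28% of all genes. Rpl29 alone was at least 1.5-fold lower (236 and 127 CPM). Together the ribosomal protein genes took 28.5% of UMIs at E11.5 and 33.2% at E12.5. Across these 80 genes the log2 ratio and transcript length had a Pearson r of -0.47 (Spearman rho -0.57), given as a description of genes that share libraries. Rps28 was 2.71-fold higher in endothelial-marker and 2.35-fold higher in germ-marker cells. Over the 80 genes, 64 intervals lay above 1 and 7 below in endothelial-marker cells, and 48 above and 22 below in germ-marker cells. Their median log2 ratios were 0.23 and 0.075 there, against -0.15 and -0.08 over all genes.

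Over all 5718 compared genes with a length, length and ratio were only weakly related (Pearson r -0.06, Spearman rho -0.10, a description). Genes of at most 600 nt had a median log2 ratio of 0.10 (274 genes; 0.05 without ribosomal proteins) and those of 600 to 1000 nt one of -0.11 (1132 genes). The medians of longer genes followed no single direction, at -0.18 for 1000 to 2000 nt, -0.21 for 2000 to 3000 nt, -0.15 for 3000 to 5000 nt and -0.12 above that. Atp5k, a small ATP synthase subunit, went from 231 to 536 CPM (2.33-fold, 2.25 to 2.41), and Pet100, a small assembly factor of cytochrome oxidase, from 56.5 to 125 CPM (2.22-fold, 2.06 to 2.38). Both were also higher in endothelial-marker cells, at 1.99-fold and 1.93-fold. The part of length in these ratios was not tested. Genes of the respiratory chain list lay on both sides of 1. Of 26 compared, 11 had intervals above 1 and 11 below, 0 were past 2-fold and 2 (Atp5e, Ndufa1) at least 1.5-fold higher, with a median log2 ratio of 0.02.

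Immediate early genes, induced within minutes of stimulation or dissociation, were higher in the E12.5 cells. The stress-induced factor gene Atf3 went from 5.25 to 35.3 CPM (6.74-fold, 5.49 to 8.33), Dusp1 from 38.5 to 69.7 CPM (1.81-fold), Klf4 from 48.0 to 84.6 CPM (1.76-fold) and Fos from 364 to 579 CPM (1.59-fold, 1.54 to 1.64). Of 18 genes compared, 1 (Atf3) was at least 2-fold higher, 7 were past 1.5-fold upward and 0 past it downward, with a median log2 ratio of 0.51. Among all genes 0.709% passed the 2-fold limit upward, 2.28% the 1.5-fold limit upward and 3.81% that limit downward. Their median log2 ratio was -0.15. With so small a share downward, the 0 says little about a list of 18 genes. The heat shock gene Hsph1 of the list was lower at E12.5 (49.0 and 35.3 CPM). The Atf3 difference was not seen in endothelial-marker cells, where it had 37 and 11 UMIs (22.4 and 8.94 CPM), while Fos was 1.82-fold higher there. The list did not share its direction in other cells. In endothelial-marker cells 3 of 17 genes had intervals above 1 and 5 below (median log2 ratio -0.10), and in germ-marker cells 1 of 8 above and 6 below (median -0.49). Dissociation was the same in the labels for both libraries, and its part in these values was not tested.

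The transcription factors that define the gonadal primordium were mostly slightly lower. None of the 11 compared was past 1.5-fold, but 93.9% of all genes lay within that limit. Of the 11, 9 were below a log2 ratio of 0, as were 74.1% of all genes, and 8 had intervals wholly below 1. Their median log2 ratio was -0.31, against -0.15 over all genes. Wt1 stood at 447 and 336 CPM, Lhx9 at 484 and 382 CPM, Emx2 at 256 and 208 CPM and Gata6 at 162 and 140 CPM. Nr0b1, an X-linked orphan nuclear receptor gene of the gonad, stood at 39.1 and 28.04 CPM. Nr5a1, the steroidogenic factor needed for gonad formation, was level.

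In the summed cells most genes of the 2 cell cycle phase lists were slightly lower. None was past 2-fold, but only 0.709% of all genes were so upward and 0.952% downward. Below a log2 ratio of 0 were 14 of 16 S phase and 18 of 19 G2 and M phase genes, against 74.1% of all genes. Of these lists, 13 and 15 genes had intervals wholly below 1. The S phase list (16 genes) had a median log2 ratio of -0.27 and the G2 and M phase list (19 genes) one of -0.34, against -0.15 over all genes. In the strata described below the medians differed, at -0.04 (S phase) and 0.06 (G2 and M) in the stromal and -0.16 and -0.74 in the remaining stratum. Rrm2, a subunit of ribonucleotide reductase, went from 102 to 59.6 CPM (1.71-fold lower), while Mki67 stood at 43.2 and 39.7 CPM. Cdkn1c, the imprinted inhibitor p57, was abundant at 1864 and 1591 CPM. The D cyclin gene Ccnd2 went from 193 to 297 CPM (1.54-fold higher) and the stress-response gene Gadd45g from 317 to 159 CPM (1.99-fold lower).

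Signalling and metabolic lists held single genes that moved. Among IGF pathway genes Igfbp2 went from 296 to 511 CPM (1.73-fold higher) and Igfbp5 from 304 to 188 CPM (1.62-fold lower), both encoding binding proteins of insulin-like growth factors. Among BMP and TGF-beta genes Id1, a direct BMP target, went from 119 to 182 CPM (1.53-fold higher) and the inhibin beta B gene Inhbb from 31.3 to 18.9 CPM. In cholesterol synthesis 13 of 13 genes had log2 ratios below 0, as had 74.1% of all genes, with a median of -0.25 against -0.15 over all genes, and Idi1 alone was at least 2-fold lower (80.0 and 37.0 CPM, 2.16-fold, 1.97 to 2.37). Of 6 Hox genes compared, Hoxa7 was at least 2-fold lower (21.4 and 10.2 CPM) and Hoxd9 at least 1.5-fold lower (120 and 77.4 CPM). Idi1 and Hoxa7 lay within 2-fold after centring, at log2 ratios of -0.96 and -0.91.

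The mix of cells inside the gate differed between the libraries, and a sum cannot tell fewer cells of a kind from less RNA per cell. At equal depth, cells with at least 2 UMIs of the stromal genes Nr2f2, Tcf21 and Pdgfra and no Upk3b or Upk1b made up 28.5% (26.0 to 31.1) at E11.5 and 22.4% (20.2 to 24.7) at E12.5. Cells with a UMI of the surface epithelium genes Upk3b or Upk1b and fewer than 2 stromal UMIs made up 9.42% and 7.98%, cells meeting both limits 7.05% and 3.81%, and the remaining cells 55.0% and 65.8%. These are ranges cut from a few UMIs and not cell types. The stratum ratios and the weighting used the same limits on unthinned cells, where the mix differed more. There stromal cells made up 45.3% and 32.7% and remaining cells 28.3% and 48.4%. Surface cells made up 4.73% and 5.58% and cells meeting both limits 21.7% and 13.3%. The 41 and 55 genes were called on sums of these same cells, so agreement in sign within strata was nearly fixed and is no separate support. In the whole sum 74.1% of all genes lay below 0. Of the 41 higher genes, 41 were above 0 in the remaining and 41 in the stromal stratum. In the surface stratum (60 and 78 cells) the ratio was above 0 on the log2 scale for the 40 genes with more than 3 UMIs at either stage. Foxl2 had only 2 and 3 UMIs there and no ratio was taken; it was 2.65-fold higher in the remaining and 1.65-fold higher in the stromal stratum. With strata weighted as at E11.5 its log2 ratio was 0.92, short of 2-fold. Of the 55 lower genes, 55 and 53 were below 0 in the remaining and stromal strata, and 48 of the 52 with a ratio in the surface stratum. Gng13 was 12.4-fold, 10.1-fold and 26.7-fold higher in those strata and Tgm3 was lower in each of them.

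The haemoglobin genes were the largest decrease by ratio and came from very few cells. Hbb-y, an embryonic beta-type globin, went from 691 to 26.9 CPM and Hba-a1 from 293 to 15.4 CPM. Of the erythroid-marker UMIs in the E11.5 sum, 92.5% lay in 2 of 1268 cells, in which they made up 70.0% and 42.1% of the cell's UMIs. The summed erythroid level was 1331 CPM at E11.5 and 65.9 CPM at E12.5 over all cells, and 99.4 and 57.7 CPM with the top 2 cells of each library left out. Without every cell holding 50 or more such UMIs (3 and 1 cells) the counts were 41 genes higher and 50 lower.

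Some called genes carry a limit of their own. Tsix, the antisense partner of Xist, went from 6.34 to 27.7 CPM (4.37-fold), and the strand used in counting is not given in the sources used here, so its reads cannot be told from those of Xist, which was 1.34-fold higher. The same holds for Rab26os (29.2 and 66.2 CPM). Tpm3-rs7 (33.6 and 103 CPM, 3.07-fold) is a processed copy of Tpm3 and Rps27rt (265 and 655 CPM) one of Rps27, and reads may be split between copies. Mid1, an X-linked ubiquitin ligase gene, went from 31.1 to 5.58 CPM and was also lower in endothelial-marker (3.54-fold) and germ-marker cells (24.9-fold), and returned to 31.4 CPM in the E13.5 library.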

How the data were processed

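The authors deposited filtered 10x matrices holding raw, unnormalized UMI counts for each gene in each barcode; per the submitters' processing notes they were made with Cell Ranger 3.0.2 on mm10. Annotation, cell calling and counting strand: not given in the sources used here. Of 31053 features, 31011 matched GENCODE vM21 for coordinates and transcript lengths. The 71 features with a repeated symbol carry their identifier and are not in the lists under their symbol.

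Counts of the selected cells were summed per library and scaled to a total of 1e6 (CPM). Genes with at least 20 CPM in either sum were compared, leaving out mt- genes and the 6 genes of the rule. A ratio of at least 2 was called; a second limit of 1.5 was chosen after seeing the data. Ratios carry exact conditional binomial and shares exact Clopper-Pearson 95% intervals, for counting error only; a sum of 0 was set to 3 counts, and within strata no ratio was taken where both sums were 3 or fewer. The script was tested on simulated data. Cells were thinned with seed 0. Analyses used Python 3.11.15, NumPy 2.4.6, SciPy 1.17.1 and pandas 2.3.3; doublets were scored with Scrublet for 1 alternative and otherwise kept.

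The rule, gene lists (29, with 11 marker lists) and alternatives were chosen with earlier results of these data known. Genes were named as the 12 largest ratios each way at 50 CPM or more (without ribosomal protein, haemoglobin and predicted genes), up to 3 called genes of each list each way, and 38 key genes. Others named from the lists or calls were chosen after their values were seen. The endothelial-marker cells were set at 10 or more marker UMIs, in place of the planned 3, after many selected cells proved to hold 3; the comparison in endothelial-marker and germ-marker cells and the promoter search were also added then.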

Additional observations from a re-analysis of the deposited data

How the results depend on the processing

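The counts of 41 higher and 55 lower genes stayed within 1.5 times under most alternatives, though the genes behind them partly changed. No named gene or list that was called reversed, which was nearly fixed in advance because most alternatives reuse the same cells. At 50 CPM or more 25 genes were higher and 31 lower, and at 5 CPM or more 93 and 124. In the stratum without stromal or surface markers 104 genes were lower, and among cells with no UMI of 6 cell cycle genes 92; both sums hold fewer cells. The next 3 alternatives were chosen after seeing the data. With ribosomal protein and mt- genes left out of the totals 64 genes were higher. With transcripts over 1000 nt only 23 were higher and 33 lower, since fewer genes were compared. The other one, without erythroid-marker-high cells, is given with the haemoglobin genes. Removing 61 and 87 barcodes by doublet score gave 42 and 59. With at least 2 Gata4 UMIs the counts were 38 and 69, including 35 of the 41 higher and 48 of the 55 lower genes. With no Gata4 gate the counts were 43 and 54, but these included only 37 of the 41 and 36 of the 55. Of the 41 and 55, 39 and 51 were still compared there with their direction kept. Without the gate 32 named genes moved outside their counting interval and 25 stayed within. Without the gate Gpr37 (log2 ratio -0.98), Pfkl (-0.96), Idi1 (-0.85) and Ankrd37 (-0.86) lay within 2-fold. Over all alternatives the log2 ratio ranged from 3.50 to 3.996 for Gng13, 1.46 to 1.92 for Irx3, 0.92 to 1.54 for Foxl2, -2.49 to -1.95 for Tgm3 and -1.53 to -1.10 for Eno1. No paired analysis was possible because each stage has 1 library. Depth limits genes below 20 CPM, where 3 counts make about 0.143 CPM at E11.5 and 0.173 CPM at E12.5.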
